A study of Mus musculus with 6 samples.

Results

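The genes described here build the junctions by which neighbouring cells hold on to each other: cadherins (symbols Cdh with a number), protocadherins (Pcdh with a number), claudins (Cldn), the Tjp scaffolds and Ocln, Cgn, F11r, Marveld2 and Marveld3, the desmosomal genes Dsg, Dsc, Dsp, Jup and Pkp, and the connexins Gja and Gjb. They were chosen by symbol, with earlier results of these data known. Of the 60 such genes listed, 41 had a mean of at least 10 over all 6 libraries and entered the test, out of 17812 tested genes in the whole table of 26110.

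Bulk RNA-seq had been done on MHCIIhi CX3CR1- and MHCIIhi CX3CR1+ cells, 3 libraries each, that were sorted by flow cytometry from the small bowel muscularis externa (ME), the muscle coat of the gut wall. All mice were naive and carried 1 CX3CR1 allele replaced by GFP (CX3CR1+/GFP), so that both populations are heterozygous for CX3CR1 and GFP reports it. The mice had received no treatment. Tissue of 6 mice had been combined for a group. It is not stated if the libraries of a group stem from separate pools, so that p-values measure the spread between these libraries, which may be technical. The study calls both populations macrophages and the labels call them dendritic cells.

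In an epithelium, adherens junctions couple cells through the extracellular domains of cadherins, which bind the same cadherin on the next cell and are tied to actin by catenins. Tight junctions seal the space between cells with strands of claudins and occludin that are anchored to the ZO proteins, desmosomes rivet intermediate filaments of neighbouring cells together through desmogleins, desmocollins, plakoglobin and desmoplakin, and gap junctions made of connexins let small molecules pass. Individual members mark different cells: E-cadherin (Cdh1) epithelia and some dendritic cells, VE-cadherin (Cdh5) endothelium and Cdh11 fibroblasts. Macrophages of the muscle coat are not known for desmosomes or tight junction strands.

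Junction genes were mostly higher in CX3CR1- cells. Of the 41 tested genes, 27 were called higher in CX3CR1-, 1 was called lower and 13 were not called (limma with Benjamini-Hochberg adjustment, adjusted p not above 0.05 and a change of 1 or more on the log2 scale). Among all tested genes, 12.2% were called higher and 8.15% lower. The median log2 fold change was 2.64 over the 41 genes and 0.00 over all tested genes, and 37 of the 41 had a fold change above 0. In 31 of the 41 genes the 3 libraries of one population all lay above the 3 of the other, which holds for 40.0% of all tested genes. All 28 called genes were among the 31. An exact permutation test of a single gene cannot go below p = 0.1 with 3 libraries against 3, and it gave that value for these genes. Since the RNA is bulk RNA, fewer cells of a type and less RNA per cell cannot be told apart in any of these values.

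**Figure D1:**
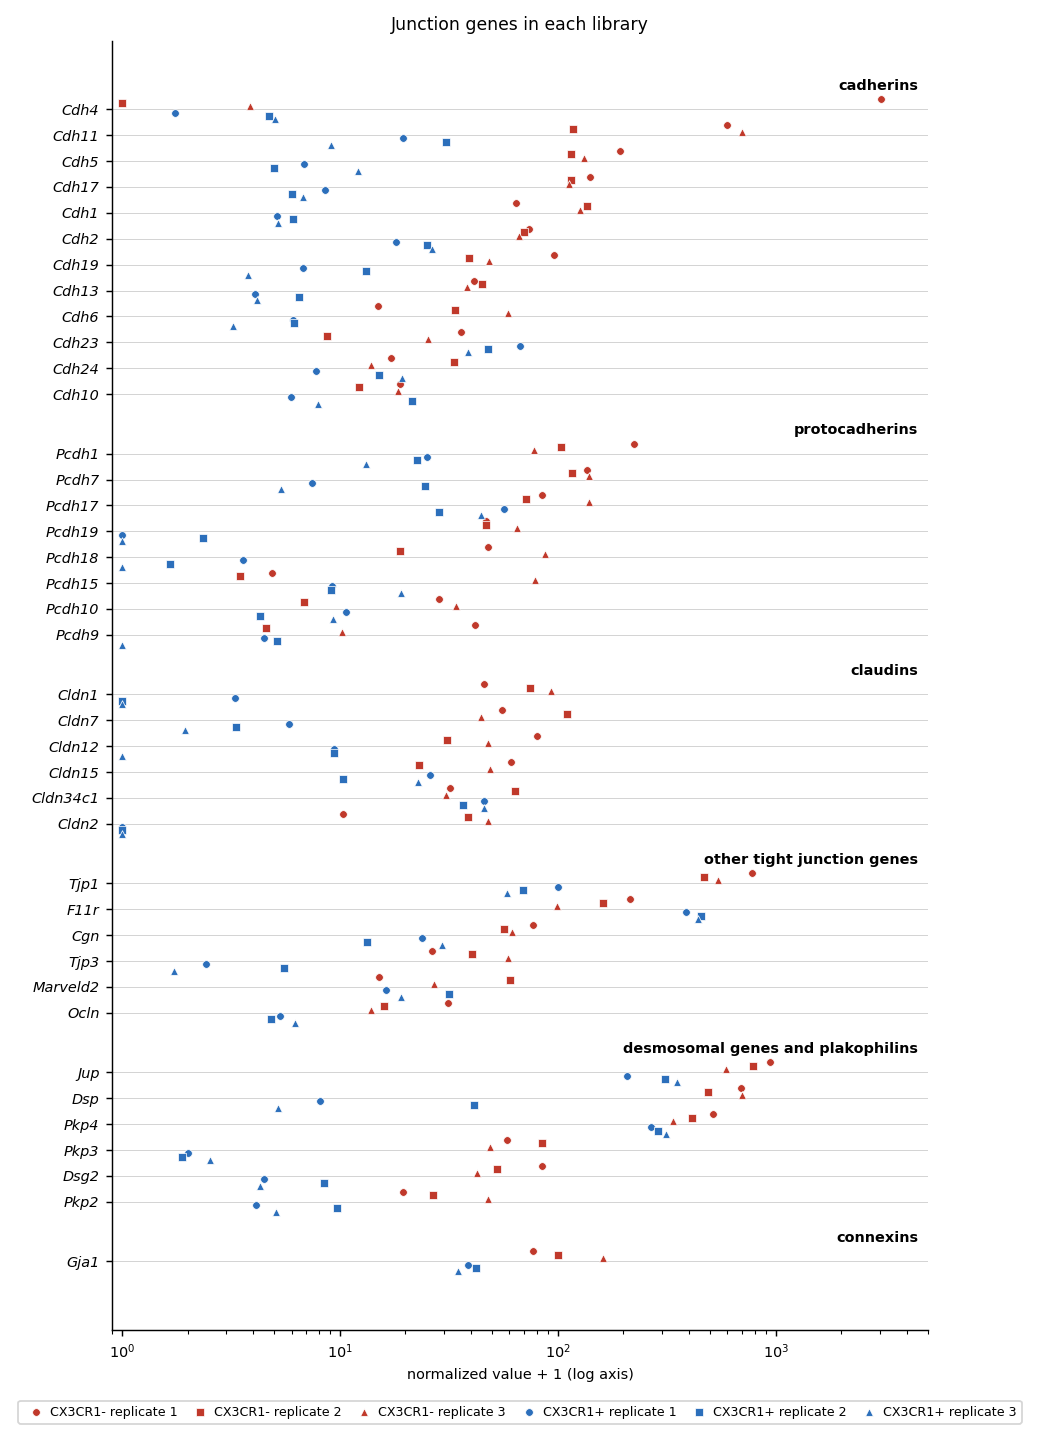
Normalized value + 1 (x axis, logarithmic) of 39 of the 41 tested junction genes in each library, by gene class and in falling order of the CX3CR1- mean. Red symbols are the 3 CX3CR1- and blue symbols the 3 CX3CR1+ libraries, set off vertically for legibility; F11r and Cdh23 are the genes whose blue symbols all lie to the right of the red ones, and the Cdh4 mean rests on CX3CR1- replicate 1.

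The filter on low values has a part in these counts. Of the 41 genes, 20 reached a mean of 10 in CX3CR1- libraries only, so that they had to differ to enter the test, and 16 of those were called higher. The other 21 had a mean of at least 10 in both populations. Of these 21, 11 were called higher and 1 lower, beside 8.03% higher and 8.46% lower among all genes with such means. Their median log2 fold change was 1.18, against -0.08 over all genes with such means, and 17 were above 0. Every CX3CR1- library lay above every CX3CR1+ library in 12 of them, and the reverse held in 2. For all genes with such means the counts were 2383 and 3202 of 15249. The 20 genes that passed in CX3CR1- only had a median of 3.64, and 17 did not overlap. Dsp and Pcdh7, both among the 11 called higher, reached a CX3CR1+ mean of 10 through replicate 2. It held 40.3 and 23.5, against 7.14 and 6.45 in replicate 1 and 4.21 and 4.36 in replicate 3. In 15 of the 27 genes called higher at least 1 CX3CR1+ library held the equivalent of 3 reads or fewer, a normalized value of 1.39 to 4.25 in these libraries. Just inside the threshold lay Pcdh9 and Ocln with means over the 6 libraries of 10.2 and 11.9, and just outside lay Cldn3 and Dsc2 with 7.51 and 7.37.

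**Figure D2:**
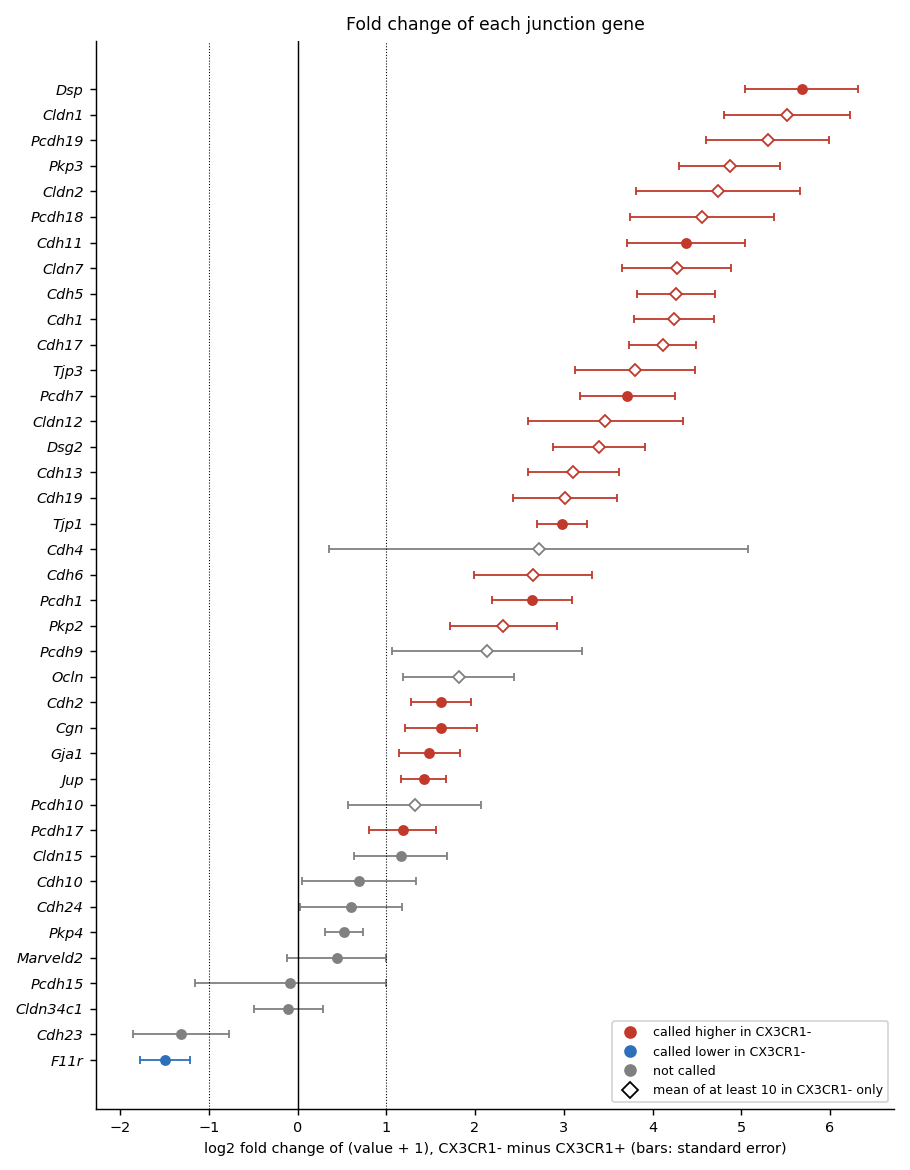
Log2 fold change of (value + 1), CX3CR1- minus CX3CR1+, of 39 of the 41 tested junction genes with its standard error (bars). Open diamonds reached a mean of 10 in CX3CR1- only; the fold changes run from -1.49 (F11r) to 5.68 (Dsp), and dotted lines mark -1 and 1.

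The RNA of other cell types moved with the populations. All 12 tested epithelial marker genes, such as Vil1, Krt20 and Fabp2, were called higher in CX3CR1-, and their summed value was 18259 to 33895 in CX3CR1- and 25.6 to 55.7 in CX3CR1+ libraries. Of this list only Lgr5 and Olfm4 were too low to be tested. Of all tested genes, 12.2% were called higher and 8.15% lower. All 6 fibroblast markers were called higher, with sums of 4117 to 12168 against 181 to 316. Of the blood endothelial markers 4 of 6 were called higher (762 to 1025 against 376 to 655), of the lymphatic ones 3 of 4 with 1 lower (508 to 765 against 203 to 385), of those of enteric glia and neurons 3 of 7 (166 to 519.6 against 89.3 to 93.6) and of those of interstitial cells of Cajal 1 of 2 (162 to 734 against 71.5 to 79.2). For mesothelium it was 1 of 3 (33.5 to 212 against 17.1 to 31.03). Most of the lymphatic sum was Lyve1, at 446 to 680 in CX3CR1- and 141 to 295 in CX3CR1+ libraries. The lymphatic marker called lower was Prox1, at 12.03, 22.2 and 16.8 in CX3CR1- against 86.1, 79.9 and 52.1 in CX3CR1+. None of the 6 smooth muscle markers was called, and their sums were 918 to 2675 against 1954 to 2745. All 7 dendritic cell markers were called higher (3546 to 4220 against 357 to 394) and all 7 macrophage markers lower (5349 to 6544 against 27538 to 30641), and neither list was near 0 in either population. The 4 tested T, B and plasma cell markers were all called higher, with sums of 1358 to 3511 against 22.2 to 30.2, while the leukocyte gene Ptprc did not pass the test (2860 to 4526 against 3897 to 4579). Mitochondrial transcripts took 47.5 to 54.9% of the normalized total in CX3CR1- and 18.1 to 21.2% in CX3CR1+ libraries. The part of these cell types and of the mitochondrial share in the junction gene values was not tested.

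**Figure D3:**
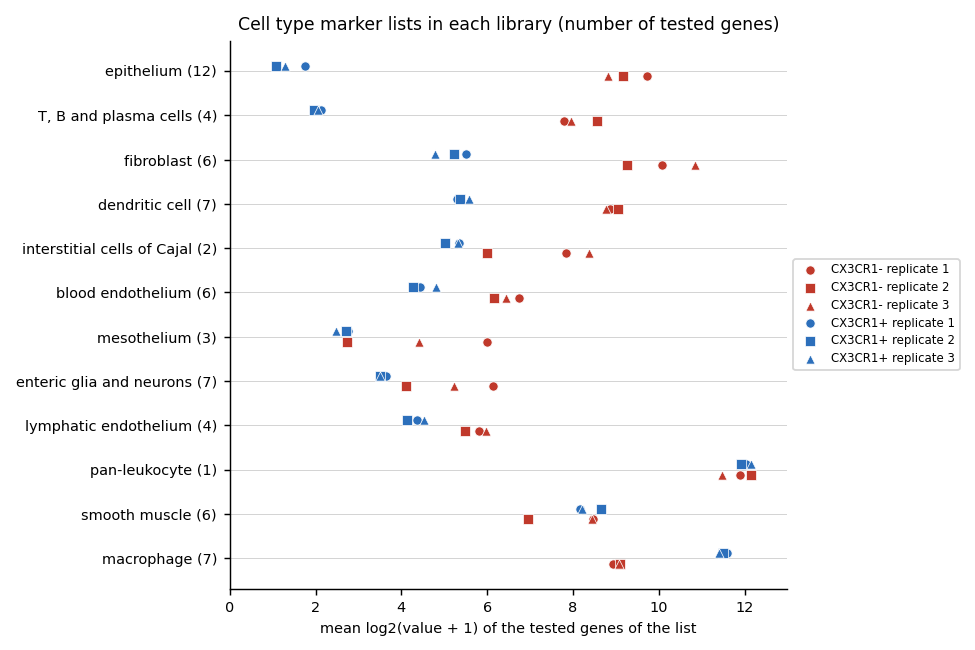
Mean log2(value + 1) of the tested genes of each cell type marker list (x axis) in each library, with the number of tested genes in brackets. The epithelial score lies between 8.82 and 9.72 in the CX3CR1- (red) and between 1.07 and 1.76 in the CX3CR1+ (blue) libraries, and the smooth muscle score of CX3CR1- replicate 2 (6.96) is below those of the other libraries.

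Of the 18 cadherins listed 12 were tested, 8 of them were called higher in CX3CR1- and none was called lower. Among all tested genes 12.2% were called higher and 8.15% lower. Of the 8 called, 6 had reached a mean of 10 in CX3CR1- only. The other 2 were among the 5 cadherins with such a mean in both populations, where 8.03% of all genes were called higher. Cdh17, the liver-intestine cadherin of enterocytes, had the smallest adjusted p among the 41 genes. The values were 139, 113 and 111 in CX3CR1- against 7.55, 5.02 and 5.78 in CX3CR1+, a log2 fold change of 4.11 (SE 0.38, adjusted p = 3.93e-05, limma). E-cadherin (Cdh1) was at 63.2, 135 and 126 in CX3CR1- and at 4.13, 5.10 and 4.22 in CX3CR1+ libraries, so that the lowest CX3CR1- library was still far above the highest CX3CR1+ library. The difference on the log2 scale was 4.24 (SE 0.45, adjusted p = 9.95e-05, limma). The endothelial Cdh5 lay at 193, 114 and 131 against 5.88, 4.01 and 11.1, a log2 fold change of 4.26 (SE 0.44, adjusted p = 8.31e-05, limma). As ratios of the means, Cdh17 was 19.8-fold, Cdh5 20.9-fold and Cdh1 24.1-fold higher in CX3CR1- cells.

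Cdh11, the cadherin of mesenchymal cells, varied between the CX3CR1- libraries. It was at 598 and 697 in CX3CR1- replicates 1 and 3 but at 116 in replicate 2, against 18.5, 29.8 and 8.06 in CX3CR1+ libraries. The log2 fold change was 4.38 (SE 0.66, adjusted p = 9.25e-04, limma), and 5.20 without CX3CR1- replicate 2. N-cadherin (Cdh2), found in mesenchymal and neural cells, was far more even, at 72.7, 69.3 and 65.4 against 17.1, 24.0 and 25.4. This gave a log2 fold change of 1.62 (SE 0.34, adjusted p = 0.00599, limma), the smallest of the called cadherins. The remaining called cadherins were Cdh13 (log2 fold change 3.11), the GPI-anchored T-cadherin, Cdh19 (3.02), known from glia of the peripheral nervous system, and Cdh6 (2.65). Cdh6 was at 13.9, 32.8 and 58.4 in CX3CR1-, and its call was lost without CX3CR1- replicate 3 (log2 fold change 2.18) and without CX3CR1+ replicate 3 (2.34).

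R-cadherin (Cdh4) showed a value of 3041 in CX3CR1- replicate 1, of 0 in replicate 2 and of 2.87 in replicate 3, against 0.75, 3.72 and 4.04 in CX3CR1+ libraries. Its CX3CR1- mean of 1015 came from 1 library, and the gene was not called (log2 fold change 2.71, SE 2.36, adjusted p = 0.454, limma). Cdh23, a cadherin of the hair cell tip links that is also transcribed in leukocytes, was at 35.0, 7.72 and 24.4 in CX3CR1- and at 65.8, 46.9 and 37.6 in CX3CR1+ libraries. Its populations did not overlap, but the log2 fold change of -1.32 did not pass the test (SE 0.54, adjusted p = 0.109, limma). The values of Cdh10 and Cdh24 overlapped between the populations, and their means lay between 10.8 and 20.5.

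Of the 10 protocadherins with a number 8 were tested, 5 were called higher and none lower, beside 12.2% and 8.15% of all tested genes. Of the 5, 3 were among the 4 with a mean of at least 10 in both populations, where 8.03% of all genes were called higher. Protocadherins are cadherin-like membrane proteins that bind weakly to their own kind and lack the catenin binding of classical cadherins. Pcdh19 lay at 45.9, 46.0 and 64.0 in CX3CR1- and at 0, 1.36 and 0 in CX3CR1+ libraries. As all CX3CR1+ values were at or under 3 reads, its mean was at least 19.3-fold higher in CX3CR1- (adjusted p = 3.7e-04, limma). The floor here is the mean of the 3-read values of the CX3CR1+ libraries. Pcdh7 was at 135, 116 and 139 against 6.45, 23.5 and 4.36. The log2 fold change was 3.72 (SE 0.54, adjusted p = 6.93e-04, limma) and rose to 4.37 without CX3CR1+ replicate 2, its highest CX3CR1+ library. Of its 31-mers, 20.7% also occur in another gene, 4932441J04Rik, so that its reads could be split.

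Pcdh1 had CX3CR1- values of 223, 102 and 76.6 against 24.1, 21.6 and 12.2 in CX3CR1+. It rose by 2.64 on the log2 scale (SE 0.45, adjusted p = 0.00198, limma). Pcdh18 was at 46.8, 17.8 and 86.0 against 2.59, 0.66 and 0, and its lowest CX3CR1- library was replicate 2. The log2 fold change was 4.56 (SE 0.81, adjusted p = 0.00246, limma), and 5.15 without that replicate. Pcdh17 was at 84.0, 70.3 and 138 in CX3CR1- and at 55.6, 27.5 and 43.4 in CX3CR1+. Its log2 fold change of 1.18 (SE 0.38) lay close to the threshold with an adjusted p of 0.0446 in limma. The call was lost without any one of CX3CR1- replicates 1 and 3 and CX3CR1+ replicates 1, 2 and 3, where the log2 fold change ran from 0.91 to 1.41. It was also lost after quantile normalization (0.93), without a filter on low values and without the intensity trend.

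Pcdh9, Pcdh10 and Pcdh15 were not called. Each had high values in 1 or 2 CX3CR1- libraries only. Pcdh15 was at 77.7 in CX3CR1- replicate 3 and between 2.49 and 18.01 in all other libraries. Pcdh9 was at 40.7 in CX3CR1- replicate 1 and at most at 9.21 elsewhere. Pcdh10 was at 27.5 and 33.3 in CX3CR1- replicates 1 and 3 and at 5.81 in replicate 2, and without replicate 2 it was called higher (log2 fold change 2.05 instead of 1.32).

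Among claudins, the membrane proteins that form the tight junction strands, 6 of 12 were tested and 4 were called higher, beside 12.2% of all tested genes. All 4 had a mean of at least 10 in CX3CR1- only and so had to differ to be tested, and neither of the 2 claudins that reached it in both populations was called. Cldn1, a sealing claudin, was at 44.9, 73.3 and 91.7 in CX3CR1- and at 2.31, 0 and 0 in CX3CR1+. The difference on the log2 scale was 5.51 (SE 0.71, adjusted p = 3.31e-04, limma). Cldn7, a claudin of the whole length of the intestinal epithelium, was at 54.7, 110 and 43.2 against 4.84, 2.33 and 0.94. Its log2 fold change was 4.27 (SE 0.61, adjusted p = 6.71e-04, limma), and unlike Cdh11 its highest library was CX3CR1- replicate 2.

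Cldn2, which forms cation and water pores in leaky epithelia such as intestinal crypts, was at 9.32, 37.8 and 46.9 in CX3CR1- and at 0 in every CX3CR1+ library. The mean of Cldn2 was therefore at least 11.6-fold higher in CX3CR1-, by the floor used above for Pcdh19, with replicate 1 at 9.32 closest to that floor. Its adjusted p was 0.0041 (limma), and without CX3CR1- replicate 3 its mean fell below the filter. Cldn12 was at 79.7, 29.98 and 47.0 against 8.41, 8.39 and 0. Its log2 fold change of 3.47 (SE 0.87, adjusted p = 0.0153, limma) leaned on the 0 in CX3CR1+ replicate 3, without which it was 2.39, and its call was lost without CX3CR1- replicate 1.

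Cldn15, the channel-forming claudin of small intestinal villi, was higher on average but overlapped, at 59.8, 22.0 and 48.0 in CX3CR1- and at 24.8, 9.33 and 21.8 in CX3CR1+. It was not called (log2 fold change 1.16, SE 0.53, adjusted p = 0.143, limma), except without CX3CR1- replicate 2, where the fold change was 1.58. Cldn34c1 overlapped as well, at 45.0, 35.9 and 44.9 against 31.04, 62.8 and 29.7 in CX3CR1-. On the log2 scale the difference was -0.10 (SE 0.39, adjusted p = 0.877, limma). Of its 31-mers 19.0% are shared, mostly with its copy Cldn34c2. The endothelial claudin Cldn5, not tested for its low mean, was at 2.09, 12.5 and 1.99 in CX3CR1- and at 0, 1.64 and 0 in CX3CR1+.

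Below the tight junction strands lie the scaffolds. Tjp1, which encodes ZO-1, was at 774, 468.5 and 541 in CX3CR1- and at 99.2, 68.4 and 57.4 in CX3CR1+. The log2 fold change of 2.98 (SE 0.28, adjusted p = 4.93e-05, limma) stayed between 2.77 and 3.19 under every alternative tried. It was thus also present in each CX3CR1+ library, well over the value of 3 reads. Tjp3 (ZO-3), which is restricted to epithelia more than Tjp1, was at 25.5, 39.2 and 58.0 against 1.42, 4.53 and 0.73, a log2 fold change of 3.80 (SE 0.68, adjusted p = 0.00246, limma).

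Cgn, the scaffold cingulin, had CX3CR1- values of 76.4, 55.4 and 60.4 and CX3CR1+ values of 22.8, 12.3 and 28.4. Its log2 fold change of 1.62 (SE 0.40, adjusted p = 0.015, limma) was no longer called without CX3CR1- replicate 1 (1.49) or CX3CR1+ replicate 2 (1.29), and 21.6% of its 31-mers also occur in other genes, mostly BC021767. Occludin (Ocln) lay at 30.5, 14.9 and 12.95 in CX3CR1- and at 4.32, 3.83 and 5.24 in CX3CR1+. Although its populations did not overlap, its log2 fold change of 1.81 (SE 0.62) missed the threshold with an adjusted p of 0.0594 in limma. It was called without CX3CR1- replicate 3, with library quality weights and without the intensity trend. Marveld2 (tricellulin), the occludin relative at the corners where 3 cells meet, was at 14.2, 59.1 and 25.9 against 15.3, 30.6 and 18.1 and was not called (adjusted p = 0.624, limma).

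F11r was the 1 junction gene called lower in CX3CR1-. It encodes JAM-A, an adhesion protein of tight junctions that leukocytes and platelets carry as well. It was at 214, 161 and 98.6 in CX3CR1- and at 386, 452 and 440 in CX3CR1+ libraries. Every CX3CR1+ library lay above every CX3CR1- library, and the log2 fold change was -1.49 (SE 0.28, adjusted p = 0.00354, limma). It was called lower under all alternatives at the same fold threshold, with log2 fold changes from -1.75 to -1.19. Per kilobase of its longest protein-coding transcript, F11r was the most abundant of the 41 genes in CX3CR1+ cells, at a level of 169, followed by Jup with 90.3 and Pkp4 with 62.8.

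Of the 9 desmosomal genes and plakophilins listed 6 were tested, and 5 were called higher, beside 12.2% of all tested genes. Of these 5, 2 were among the 3 with a mean of at least 10 in both populations, where 8.03% of all genes were called higher. Desmoplakin (Dsp), which ties desmosomes to keratin filaments, was at 693, 488 and 699 in CX3CR1- and at 7.14, 40.3 and 4.21 in CX3CR1+. The log2 fold change was 5.68 (SE 0.63, adjusted p = 1.39e-04, limma). CX3CR1+ replicate 2 was the highest of its group here, as for Pcdh7, and without it the log2 fold change was 6.57, whereas without CX3CR1+ replicate 3 it was 5.08. Desmoglein 2 (Dsg2), the desmosomal cadherin of simple epithelia and heart, lay at 84.0, 51.5 and 41.6 against 3.49, 7.44 and 3.28, a log2 fold change of 3.40 (SE 0.52, adjusted p = 9.67e-04, limma).

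Plakophilins are armadillo proteins that link desmosomal cadherins to desmoplakin. Pkp3 was at 57.3, 83.55 and 47.7 in CX3CR1- and at 1.005, 0.89 and 1.54 in CX3CR1+, each at or under 3 reads. Its mean was at least 23.3-fold higher in CX3CR1- (adjusted p = 1.79e-04, limma). Pkp2 rose by 2.32 on the log2 scale (SE 0.61, adjusted p = 0.019, limma), and its call was lost after quantile normalization (1.83) and without CX3CR1- replicate 3 (1.96), CX3CR1+ replicate 1 (2.06) or CX3CR1+ replicate 3 (2.22). Pkp4, a plakophilin relative that also sits at adherens junctions, was not called at a log2 fold change of 0.52 (SE 0.21, adjusted p = 0.109, limma). It was abundant in both populations, at 338 to 513 in CX3CR1- and 267 to 314 in CX3CR1+ libraries.

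Plakoglobin (Jup), the armadillo protein shared by desmosomes and adherens junctions, was at 937, 787 and 589 in CX3CR1- and at 207, 309 and 353 in CX3CR1+. It rose by 1.42 on the log2 scale (SE 0.25, adjusted p = 0.00258, limma). Per kilobase of transcript Jup led the order of levels in CX3CR1- cells with 241, before Pkp4 with 91.4, Tjp1 with 84.4, Cdh11 with 83.3, Dsp with 65.3 and F11r with 62.6, leaving aside the 159 of Cdh4 that came from 1 library. The values of Tjp1 and Cdh11 do not differ beyond their spread between libraries.

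Gap junction genes were the smallest group. Connexin 43 (Gja1), the common connexin of fibroblasts, smooth muscle and many leukocytes, was at 75.6, 99.7 and 160 in CX3CR1- and at 37.8, 41.2 and 33.7 in CX3CR1+. It was called higher with a log2 fold change of 1.48 (SE 0.34, adjusted p = 0.01, limma). No gene of the Gjb group was among the 60 listed.

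The 19 junction genes that did not reach the filter had means of at most 15.0 in CX3CR1- and 6.45 in CX3CR1+. In 7 of them every CX3CR1- library lay above every CX3CR1+ library, in 12 the populations overlapped, and in 0 did CX3CR1+ lie above. Among all tested genes the populations did not overlap in 40.0%, counting both directions, and CX3CR1- lay above in 3612 of 17812. Cldn3, Dsc2, Pcdh12 and Cdh3 had a mean of at least 10 in CX3CR1-. Without the filter Cldn3, Cldn23, Dsc2 and Pcdh12 were called higher as well. Cldn3, an epithelial claudin, was at 24.0, 16.1 and 4.99 in CX3CR1- and at 0 in all CX3CR1+ libraries. Desmocollin 2 (Dsc2), the partner of Dsg2, was at 13.4, 24.4 and 5.11 against 0, 1.32 and 0.

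The spread among CX3CR1- libraries divided the genes that were called higher. For each, the value in CX3CR1- replicate 2 was set against the mean of replicates 1 and 3. The median of this ratio was 0.837 over the 27 genes. It was under 0.5 for 3 genes, Cdh11 (0.180), Pcdh18 (0.268) and Cldn12 (0.473), between 0.5 and 1 for 16 genes, and at least 1 for 8 genes, with Cldn7 (2.24), Pkp3 (1.59) and Cdh1 (1.43) at the top. The same ratio had a median of 0.807 over the epithelial markers, 0.481 over the fibroblast markers, 0.680 over blood endothelium and 0.720 over lymphatic endothelium. It was 0.493 over mesothelium, 0.344 over enteric glia and neurons, 0.324 over smooth muscle and 0.232 over interstitial cells of Cajal. Over the macrophage markers it was 1.14, over the dendritic cell markers 1.24 and over the T, B and plasma cell markers 1.82. These ratios describe 1 library against 2 others and were not tested. Replicate 2 also had fewer reads, about 6517535 against 11927368 and 11331837 in replicates 1 and 3.

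**Figure D4:**
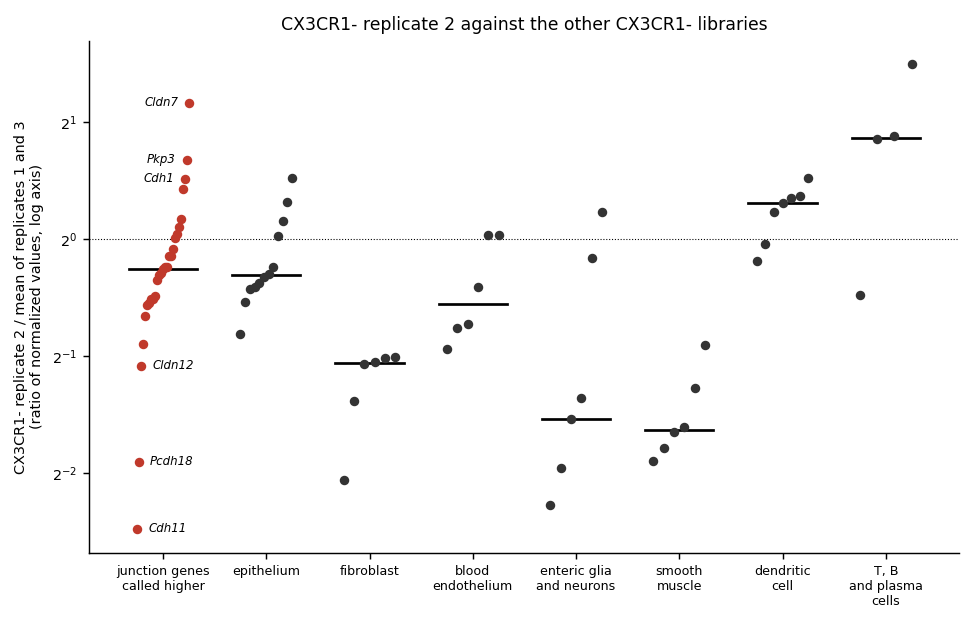
Ratio of the normalized value in CX3CR1- replicate 2 to the mean of CX3CR1- replicates 1 and 3 (y axis, logarithmic) for the 27 junction genes called higher (red) and for the tested genes of 7 marker lists (dark), with the median as a bar. Cdh11 and Pcdh18 sit at 0.180 and 0.268, below the median of the fibroblast markers (0.481), and Cldn7 sits at 2.24; 1 gene of enteric glia and neurons with a ratio of 0 is not drawn.

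The intracellular partners and other proteins of the same junctions were followed as 8 lists written by hand. Among all tested genes 12.2% were called higher and 8.15% lower. The counts of these lists were not split by the populations in which a gene reached the mean of 10. Epcam, Cdhr5 and Hnf4a, for instance, had CX3CR1+ means of 0.82, 2.08 and 1.42, so that they had to differ to be tested. Of the 13 catenins and adherens junction adaptors, all tested, 6 were called higher and 1 lower, with a median log2 fold change of 1.28. Of the catenin genes, Ctnna2 and Ctnnal1 were called higher, and Ctnna1, Ctnna3, Ctnnb1, Ctnnd1 and Ctnnd2 were not called. The log2 fold change was 0.64 for Ctnna1, 0.54 for Ctnnb1, -0.51 for Ctnnd1 and -0.90 for Ctnnd2. The nectins, immunoglobulin-like adhesion proteins that start adherens junctions, went both ways. Nectin3 was at 143, 136 and 140 in CX3CR1- against 18.8, 5.61 and 7.73 (log2 fold change 3.75, adjusted p = 1.93e-04, limma) and Nectin1 rose by 4.56 on the log2 scale (adjusted p = 0.0036, limma). Nectin4 was lower, at 8.41, 32.4 and 16.1 against 139, 63.3 and 87.0 (log2 fold change -2.40, adjusted p = 0.00619, limma). The actin linkers Afdn (afadin) and Vcl (vinculin) rose by 1.58 and 1.96 on the log2 scale.

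Of 23 tight junction scaffolds, polarity proteins and other tight junction membrane proteins 20 were tested, 11 were called higher and none lower (median log2 fold change 1.58). The shares over all tested genes were 12.2% higher and 8.15% lower. Epcam, which is also in the epithelial marker list and whose product binds Cldn7, was at 299.5, 247 and 283 against 0, 2.46 and 0 (log2 fold change 7.51, adjusted p = 1.28e-05, limma). Jam2, the F11r relative of endothelial and stromal cells, was at 1192, 521 and 1782 against 74.5, 60.1 and 85.3, a log2 fold change of 3.82 (adjusted p = 7.85e-05, limma) and thus of the opposite sign to F11r. The polarity genes Pard6b and Pard3 rose by 3.54 and 2.83 on the log2 scale. Among 5 other desmosomal and plakin genes, Perp (5.13) and Evpl (2.59) were called higher and Dst (-1.10) lower. Of the other gap junction and pannexin genes 3 were tested, and Gjc1 (connexin 45) was called higher with 2.80.

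The wider cadherin superfamily followed in part. Of 17 atypical and intestinal cadherin superfamily genes 9 were tested, 5 called higher and none lower (median log2 fold change 2.10). Over all tested genes the shares were 12.2% and 8.15%. Cdhr5 and Cdhr2, the protocadherins that link the tips of brush border microvilli, had log2 fold changes of 7.37 (adjusted p = 7.08e-05, limma) and 5.10 (adjusted p = 2.85e-04, limma). Cdhr5 was at 450.2, 341 and 211 in CX3CR1- and at 6.23, 0 and 0 in CX3CR1+. Fat4 and Fat1 were also called, with 2.96 and 3.06. Of 46 clustered protocadherins, known from neurons, only 21 were tested, 5 were called higher, 0 lower and 16 not. The log2 fold change was above 0 in 11 of the 21 and ran from -1.83 to 3.69. Pcdhgc3 (3.44), Pcdhb16 (2.55), Pcdhgb1 (1.79) and Pcdhb17 (3.69) had the smallest adjusted p.

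**Figure D5:**
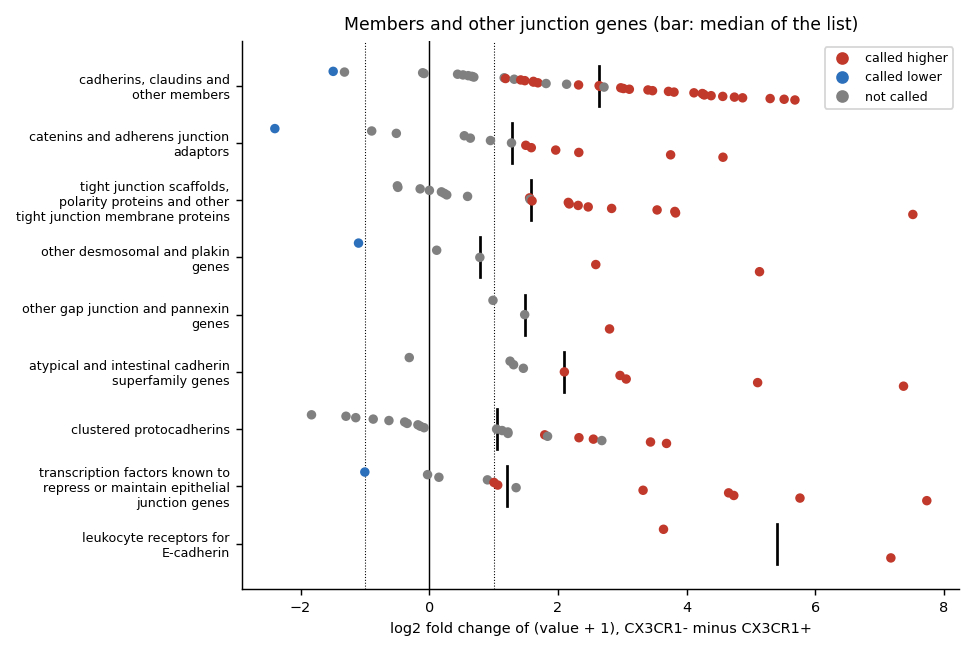
Log2 fold change of (value + 1), CX3CR1- minus CX3CR1+, of every tested gene of the 41 described here (top row) and of the 8 other junction lists, with the median of each as a bar. Red is called higher, blue called lower and grey not called; the medians are 2.64 for the 41 genes and 1.05 for the clustered protocadherins, and dotted lines mark -1 and 1.

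Itgae (the CD103 chain) and Itgb7 together form the integrin by which intraepithelial lymphocytes and intestinal dendritic cells bind E-cadherin. Itgae was at 267, 272 and 503.5 in CX3CR1- and at 1.86, 3.29 and 0 in CX3CR1+ (log2 fold change 7.17, adjusted p = 1.76e-05, limma). Itgb7 was at 364, 417 and 342 against 37.5, 28.7 and 22.7 (log2 fold change 3.64, adjusted p = 1.32e-05, limma). Receptor and ligand genes were therefore higher in the same bulk population. Whether they were transcribed in the same cells was not tested.

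Transcription factors known to maintain or repress epithelial junction genes were followed as well. Of 19 listed 12 were tested, 7 were called higher and 1 lower, beside 12.2% and 8.15% of all tested genes. The other 4, Ehf, Grhl1, Grhl2 and Snai2, were not called. Klf5 (5.76), Hnf4a (7.73) and Elf3 (4.65), which maintain epithelial programmes, and Klf4 were among the 4 higher genes with the smallest adjusted p, where Klf4 lay at the fold threshold with 1.005. Hnf4a was at 652, 391.6 and 195 in CX3CR1- and at 0, 0 and 4.25 in CX3CR1+. The E-cadherin repressors went both ways, as Zeb1, named here after its values were seen, was called higher with 1.063 and Zeb2 lower with -1.003. Both lay at the fold threshold, and the repressor Snai2 was not called (log2 fold change 0.15, adjusted p = 0.846, limma). Zeb2 was abundant in both populations, at 4070, 4248 and 3041 in CX3CR1- and 6582, 7090 and 9063 in CX3CR1+ libraries.

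Zeb1, Zeb2 and Snai factors are known to bind the E-box CACCTG, whose letters were therefore looked for on both strands of the RefSeq promoter windows (GRCm38.p6, 250 bases before to 50 after each start). Windows were searched for 27 of the 41 tested genes, which left out Cdh1, Cdh2, Cdh4, Cdh5, Cdh11, Cdh13, Cdh17, Cdh19, Dsg2, Pcdh1, Pkp2 and Pkp3 among others. The E-box was found in 9 of the 27 genes (33.3%) and in 22.6% of all 27025 genes of the table. By call, it was found in 4 of 15 genes called higher, in the 1 called lower, F11r, and in 4 of 11 not called. The letters TTTATNG, a site of the intestinal CDX factors, were found in 1 of the 27 genes (Pcdh15) and in 12.5% of all genes. They do not overlap the E-box in their letters. The sequences before the start of F11r (called lower, chr1:171437311-171437534, plus strand) and of Tjp3 (called higher, chr10:81291582-81291831, minus strand) are shown 5′ to 3′ because both hold an E-box upstream of the first exon, while the genes moved in opposite directions. Both end at the base before the first exon in GENCODE M21. Capitals mark the E-box or its reverse complement, whose first base is number 96 for F11r and number 108 for Tjp3, counted from the last base printed.
F11r: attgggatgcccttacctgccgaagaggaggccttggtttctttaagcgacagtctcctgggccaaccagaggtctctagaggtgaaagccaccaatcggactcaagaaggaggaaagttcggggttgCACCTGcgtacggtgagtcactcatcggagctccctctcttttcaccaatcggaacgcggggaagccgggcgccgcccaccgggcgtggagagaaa
Tjp3: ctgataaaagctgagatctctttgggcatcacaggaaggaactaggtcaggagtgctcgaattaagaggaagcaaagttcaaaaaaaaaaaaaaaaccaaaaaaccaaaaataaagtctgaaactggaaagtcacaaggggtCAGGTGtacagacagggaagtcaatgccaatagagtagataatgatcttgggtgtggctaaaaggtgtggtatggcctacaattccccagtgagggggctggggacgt
The letters describe the windows and do not show that a factor was bound there.

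The direction of the called genes was the same under both rescalings. Under median-of-ratios rescaling 27 genes were called higher and 1 lower, and under quantile normalization, which put the median of all genes at -0.15 on the log2 scale, 25 and 1. Leaving out each library in turn gave 24 to 29 genes called higher and 1 lower in each case. With CX3CR1- replicate 2 left out, all 28 genes remained called.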

How the data were processed

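Bulk RNA-seq values of 3 MHCIIhi CX3CR1- and 3 MHCIIhi CX3CR1+ libraries were analysed. Samples were grouped by their titles, and replicates are named 1 to 3 in accession order. The authors pseudoaligned 75 bp single reads to GENCODE M16 (mm10) with Kallisto, summed the estimated counts per gene with tximport and normalized them with DESeq2. The kit does not mark the strand, so that overlapping antisense genes cannot be told apart. As deposited, the values are a normalized signal. Of the values above 0, just 42.5 to 44.6% per library were multiples of the smallest step (within 0.01 steps), so no count test was run. The step gave about 5346379 to 17616748 reads per library and the value of 3 reads, used as the floor for counting error only.

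Genes with a mean of at least 10 were fitted with limma 3.58.1 in R 4.3.3 (intensity trend, two-sided) on log2(value + 1), and p-values were adjusted over all 17812 genes by Benjamini-Hochberg. A gene was called when the adjusted p did not exceed 0.05 and the log2 change was 1 or more in size. Fold changes are on that scale and understate the change of low genes. Lower bounds set the CX3CR1- mean against the mean 3-read value of the CX3CR1+ libraries. Levels per kilobase used the longest protein-coding transcript of GENCODE M21 (GRCm38), which also gave shared 31-mers. Promoter windows came from RefSeq (GRCm38.p6).

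The junction genes, the 12 marker lists and the 8 other junction lists were chosen with earlier results of these data known, so lists were described by counts and medians and not tested. Values per library are given for the 4 called genes per class with the smallest adjusted p and for those called lower. They are also given for the highest of each class in each population and for some genes chosen by name. Other lists show at most 4 genes per direction, and the catenins are named in addition. Of the 41 genes, 2 enter the counts but are not reported here one by one. Alternatives were pseudocounts 0.5 and 10, no filter or a mean of at least 50, 2 rescalings, no trend, quality weights, a block, no or a higher fold threshold, and dropping each library in turn.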

Additional observations from a re-analysis of the deposited data

How the results depend on the processing

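Of the single-gene log2 fold changes under the alternatives, 555 kept direction and side of the threshold, 17 lost and 5 gained the call, and 7 reversed. All 7 belong to genes that were not called: Cldn34c1 (-0.45 to 0.083 without one library), Marveld2 (-0.085 to 0.91) and Pcdh15 (-0.26 to 0.75, and 0.24 with pseudocount 10). Without the filter 30 junction genes were called higher. With a mean of at least 50 only 15 were tested, of which 12 were called higher. At a log2 fold change of at least 2, 0 were called lower, where F11r missed the fold. With adjacent library numbers as a block, which the labels do not give as pairs, 27 were called higher and 1 lower. Leaving out 1 library gave 24 to 29 higher and 1 lower, a median log2 fold change of 2.28 to 2.76, and moved 6 called genes by over 1.5 times (Cdh11, Cldn12, Dsp, Pcdh7 and Pcdh18, and Cldn2 from 4.74 to 5.43 without CX3CR1- replicate 1).

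The median log2 fold change was 1.56 with pseudocount 10, 1.85 without the filter, 2.02 after quantile normalization and 2.48 with quality weights. Of the other junction genes, 16 were called higher with a mean of at least 50, 25 to 35 without one library, and 1 was called lower after quantile normalization and 1 to 4 without one library.

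The score of the epithelial markers, CX3CR1- minus CX3CR1+, was 8.38 and 5.61 with pseudocounts 0.5 and 10, 6.92 without the filter and 7.29 to 8.06 without one library. That of T, B and plasma cells was 6.46, 4.25, 4.66 and 5.32 to 6.12 in the same order, and 5.70 after quantile normalization. Blood endothelium gave 1.33 with pseudocount 10, 1.41 with a mean of at least 50 and 1.63 after quantile normalization. Lymphatic endothelium gave 0.74, 1.08 after quantile normalization and 0.77 to 1.55 without one library. Dendritic cells gave 3.20 with pseudocount 10 and macrophages -2.15 after quantile normalization. Ptprc reversed to 0.32 after quantile normalization, and smooth muscle went from -0.64 to 0.11 without one library, reversing without CX3CR1- replicate 2. The mesothelial score had no genes left at a mean of at least 50. The cause of these changes was not tested, beside fewer genes or libraries where a setting left them out. With 3 libraries a group, genes near 3 reads in CX3CR1+ are measured least precisely.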
